A study of Mus musculus with 12 samples.

Results

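The comparison described here follows TCDD-treated cells in time: the 2 arrays of cells exposed for 6 h were set against the 2 arrays of cells exposed for 2 h, 4 of the 12 arrays of the series, with no solvent array in the difference. The cells were ET cells, a mouse line that the labels call fetal cortical thymic epithelium. Cells near confluence were washed, given fresh medium with serum and either 5 nM TCDD or the solvent, 1,4-dioxane at 0.05% by volume, and total RNA was taken after 2, 4 or 6 h. The 6 groups (3 times, 2 treatments) had 2 arrays each, which the submitters call biological duplicates; the step that was repeated is not given, so every p-value measures only the spread between such arrays, which may be technical. All the cells were of 1 line, and all groups, solvent included, shared the wash and the change of medium. Values are deposited log2 levels per probe set, in which a difference of 1 is a 2-fold difference. Of 22626 probe sets that are not array controls, the 15762 with a mean level of at least 4 over the 12 arrays were compared. They cover 9391 genes by name.

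TCDD, a dioxin that is hardly metabolised, acts through the aryl hydrocarbon receptor (AhR). The bound receptor enters the nucleus, pairs with Arnt and binds DNA at a short core sequence, from which enzymes of xenobiotic metabolism such as Cyp1a1, and the receptor's own feedback genes such as Tiparp, are switched on. In the thymus, TCDD is known for causing atrophy, and thymic epithelium is one of the tissues in which AhR is active. A change of medium with serum is itself known to switch on immediate early genes, which are transcribed within minutes and usually decline again within hours, so a 2 h sample and a 6 h sample of treated cells differ in the time since both events.

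The 3 genes that stood out most clearly were all lower at 6 h than at 2 h: Cdkn1a, the p21 inhibitor of cyclin-dependent kinases, Maff, a small Maf transcription factor, and Spsb1, an adaptor subunit of a ubiquitin ligase. The promoters of these 3 genes are shown because these were the only genes past the test in a fit that took the array set, defined below, into account. Each line gives the 250 bases before a RefSeq transcription start (build GRCm38.p6), 5′ to 3′ on the gene's strand. Capitals mark GCGTG, the core sequence bound by AhR with Arnt, or its reverse complement CACGC.

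Cdkn1a, chr17:29093519-29093768, plus strand: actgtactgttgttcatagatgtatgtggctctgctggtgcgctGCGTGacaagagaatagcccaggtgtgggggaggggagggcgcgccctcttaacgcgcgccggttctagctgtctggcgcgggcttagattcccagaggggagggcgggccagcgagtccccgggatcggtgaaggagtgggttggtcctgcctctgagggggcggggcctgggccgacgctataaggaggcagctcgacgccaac
Maff, chr15:79347270-79347519, plus strand: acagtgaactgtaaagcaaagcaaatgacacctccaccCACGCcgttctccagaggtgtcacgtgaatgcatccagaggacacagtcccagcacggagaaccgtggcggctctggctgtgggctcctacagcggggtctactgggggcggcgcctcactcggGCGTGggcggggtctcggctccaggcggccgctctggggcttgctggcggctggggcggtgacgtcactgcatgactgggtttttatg
Spsb1, chr4:149955007-149955256, minus strand: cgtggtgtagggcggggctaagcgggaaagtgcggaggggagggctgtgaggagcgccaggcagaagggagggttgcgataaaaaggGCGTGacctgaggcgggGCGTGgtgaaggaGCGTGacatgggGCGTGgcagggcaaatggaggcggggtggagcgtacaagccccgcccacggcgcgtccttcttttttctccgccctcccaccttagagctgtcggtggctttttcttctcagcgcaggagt

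The Cdkn1a window holds 1 match, whose first base lies 206 bases before the start. The Maff window holds 2 matches, at 212 and 88 bases, and also 1 E-box (CACGTG) and 1 full cAMP response element (TGACGTCA). The Spsb1 window holds 4 matches within a short stretch, at 163, 146, 133 and 121 bases before the start. Where the table lists several starts, 2 for Cdkn1a and 3 for Maff, the start with the most matches is shown. Over all 32851 promoters of the table, 28.2% held GCGTG on either strand, 6.02% held CACGTG, and 1.55% held TGACGTCA. Of the genes named below that the table lists, 8 of 10 lower genes and 3 of 14 higher genes held GCGTG before some start, against 30.9% of all genes. A gene with more starts has more chances of a match. Of the lower genes, Ak4 has 4 starts, Maff 3, and Cdkn1a and Slc20a1 2 each. Of the higher genes, Smarcad1 and Ktn1 have 2 each, and all other listed genes of both directions have 1. The E-box was held by 4 of the 10 lower and 1 of the 14 higher genes, against 6.86% of all genes. The median GC content of those windows (the highest value over a gene's starts) was 64.2% for the lower genes, 59.4% for the higher genes and 52.8% for all genes. A match is a run of letters, not a binding site.

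Across the 15762 probe sets, limma passed 0 (0%) at an adjusted p under 0.05 when it was fitted without a block, and 1278 (8.11%) had an unadjusted p under 0.05. The differences themselves were shared between the 2 pairs of arrays. Over probe sets, the difference between the first arrays and that between the second arrays correlated with Pearson's r = 0.46, given as a description since probe sets are not independent. In solvent cells the same 2 differences gave r = 0.05. The descriptions of both 6 h solvent arrays give 4 h, and the titles were followed, so the solvent span may be shorter. Both TCDD differences were at least 0.5 higher at 6 h in 469 of 9391 genes (4.99%) and at least 0.5 lower in 126 (1.34%), against 124 (1.32%) and 36 (0.383%) in solvent cells. Beyond a log2 difference of 1 in both pairs lay 45 genes higher and 10 lower with TCDD, and 0 either way in solvent. The difference between the time changes of the 2 treatments passed in 0 probe sets when fitted without a block. Counted by probe set, 886 (5.62%) were higher and 181 (1.15%) lower by 0.5 in both TCDD pairs, against 247 (1.57%) and 51 (0.324%) in solvent. The step of 0.5 was chosen after the values were seen. In these bulk samples, fewer cells that express a gene and less RNA per cell cannot be told apart.

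**Figure D1:**
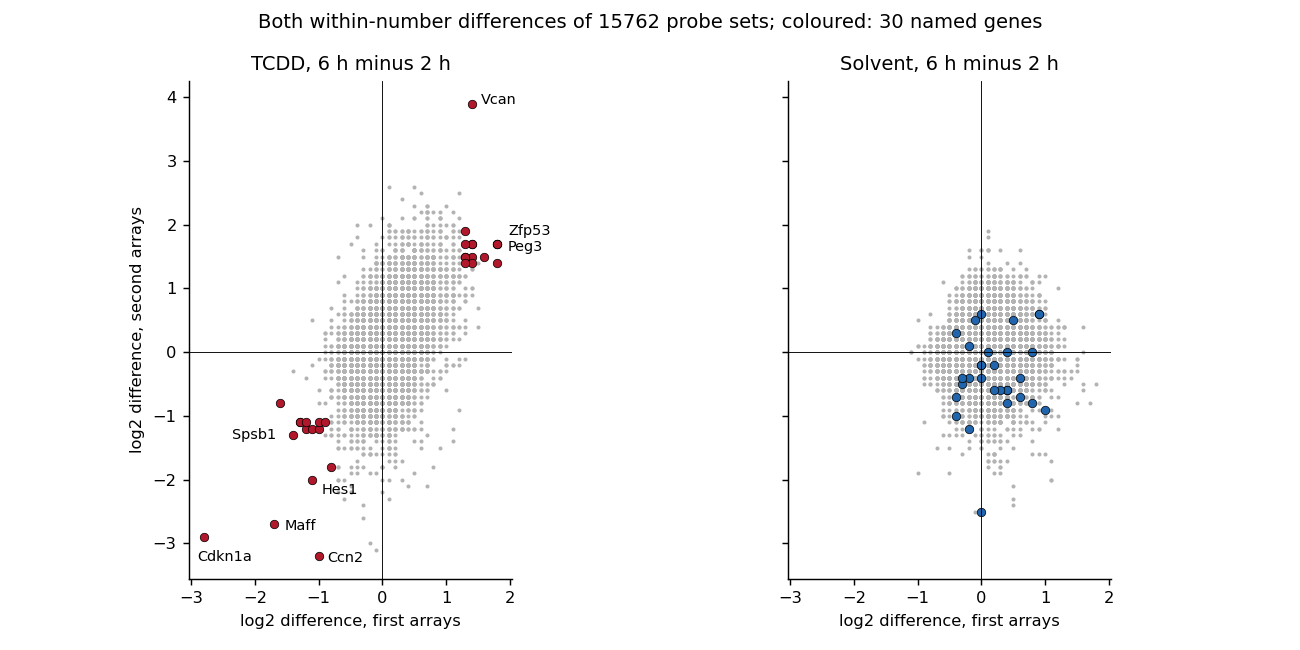
Log2 difference between 6 h and 2 h of the second arrays (vertical axis) against that of the first arrays (horizontal axis) for all 15762 probe sets (grey), with TCDD on the left and solvent on the right; coloured points are the 30 genes named in the text. With TCDD the cloud leans along the diagonal (r = 0.46), with Vcan, Zfp53 and Peg3 at its upper right and Cdkn1a, Maff and Ccn2 at its lower left, whereas in solvent it does not (r = 0.05).

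The 12 arrays fell into a larger set of 7 and a smaller set of 5 that cut across treatment and time. The larger set was the largest of 4 clusters, and the smaller set gathers the other 3. Of these, the second 2 h arrays of both treatments formed a cluster, the second 6 h arrays of both another, and the first 4 h TCDD array the last. In the second pair of each treatment, 2 h against 6 h was thus also a difference between clusters. The array set as a block does not separate these clusters, and their part in the result was not tested. In both treatments, the first arrays at 2 h and 6 h belonged to the larger set and the second arrays to the smaller, so replicate number and array set are the same split in the 4 arrays compared. With the array set as a block, 3 probe sets (0.019%) passed, all lower at 6 h: Cdkn1a, Maff and Spsb1; 2135 (13.5%) had an unadjusted p under 0.05. The 4 h TCDD arrays were the least alike of any group, with an SD over probe sets of 0.66 for the difference between them, against 0.20 to 0.40 in the other 5 groups. When either of these arrays was left out of the set-block fit, so that this pair no longer entered the spread, 113 probe sets (0.717%) passed, 96 higher at 6 h (0.609%, 77 genes) and 17 lower (0.108%, 14 genes). Leaving out the first or second 2 h TCDD array or the second 6 h TCDD array instead gave 0; leaving out the first 6 h TCDD array gave 2, Cdkn1a and Maff; and leaving out any solvent array gave 1, Cdkn1a. The sets were found in these same values and the fit without a 4 h array was added later, so these p-values may be smaller than they should be. Below, a gene is said to pass the set block, or the set block without a 4 h TCDD array; none of the genes passed without a block.

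Cdkn1a was at log2 8.9 on the first and 9.8 on the second 2 h array with TCDD (mean 9.35 ± 0.64, SD, n = 2) and at 6.1 and 6.9 at 6 h (6.50 ± 0.57). The level on both 2 h arrays was far above that on both 6 h arrays, and the 2 differences, -2.8 and -2.9, were nearly equal. This is a log2 change of -2.85, or a level 7.21 times higher at 2 h, with a standard error of 0.61 without a block (adjusted p = 0.597) and 0.21 with the set block (adjusted p = 0.00337). At 4 h the arrays lay in between and apart, at 8.3 and 6.6. In solvent cells Cdkn1a was at 6.0 and 7.3 at 2 h and 5.6 and 6.6 at 6 h, so treated cells at 6 h were within the range of the solvent cells, while treated cells at 2 h were above it. The other probe set of Cdkn1a, at a lower level, gave differences of -0.7 and -2.0.

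Maff was at 8.7 and 9.8 at 2 h (9.25 ± 0.78) and at 7.0 and 7.1 at 6 h (7.05 ± 0.07). Its log2 change of -2.20, 4.59 times higher at 2 h, had a standard error of 0.43 without a block (adjusted p = 0.597) and 0.24 with it (adjusted p = 0.0419). The groups did not overlap, and the second 2 h array was the highest. The solvent levels of Maff were 7.1 and 8.1 at 2 h and 6.7 and 7.1 at 6 h. Small Maf proteins pair with NRF2 and related factors on antioxidant genes.

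Spsb1 was at 7.7 and 7.9 at 2 h (7.80 ± 0.14) and at 6.3 and 6.6 at 6 h (6.45 ± 0.21). The arrays of each time were close to each other here, and the log2 change was -1.35 ± 0.21 (standard error) without a block, at an adjusted p of 0.597, and ± 0.16 with the set block, at 0.0487. On solvent arrays Spsb1 stayed between 6.5 and 6.9 at both times. Of its other 2 probe sets, 1 gave -0.6 and -0.9 and the other -0.4 and -0.1, so the probe sets of this gene disagree in size.

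**Figure D2:**
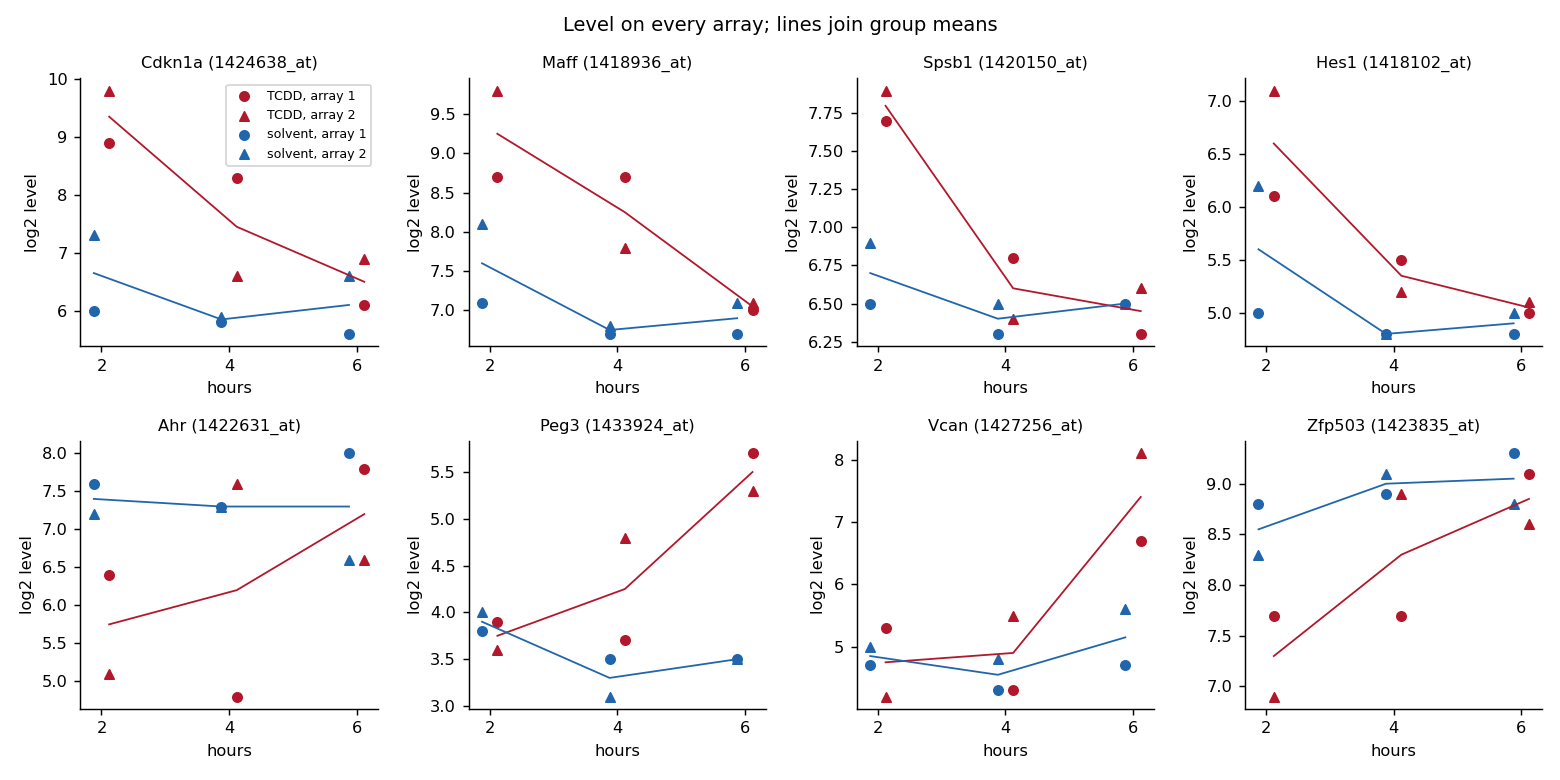
Log2 level (vertical axis) on every array at 2, 4 and 6 h (horizontal axis) for 8 genes, with TCDD in red and solvent in blue, circles for first arrays, triangles for second arrays and lines through group means. The group means of Cdkn1a, Maff, Spsb1 and Hes1 start above solvent with TCDD and come down near it by 6 h; Ahr and Zfp503 start below solvent and come up to it; Peg3 and Vcan end above it.

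By a rule that orders genes by the smaller of the 2 differences, 15 genes were named in each direction. The lower genes after the first 3 include several transcriptional regulators. Hes1, a repressor and target of Notch, was at 6.1 and 7.1 at 2 h and at 5.0 and 5.1 at 6 h, a log2 change of -1.55 ± 0.39. Fosl1, an AP-1 subunit, went from 9.1 and 10.1 to 7.8 and 9.0 (-1.20 ± 0.66). The highest 6 h level of Fosl1 was just under its lowest 2 h level. Mnt, a Max partner that opposes Myc, was at 7.8 and 7.5 and then at 6.5 and 6.4 (-1.20 ± 0.22), but its other probe set gave 0.1 and 0.0. Klf9, a Krüppel-like factor induced by glucocorticoids, was at 6.8 and 7.2 and then at 5.7 and 6.0 (-1.15 ± 0.35), with 3 further probe sets in the same direction. Hes1, Fosl1 and Mnt passed the set block without a 4 h TCDD array (adjusted p = 0.0469, 0.0215 and 0.0419), and Klf9 did not (0.0616).

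Among signalling and membrane genes, Spry1, a feedback inhibitor of ERK signalling, was at 7.6 and 7.4 at 2 h and 6.8 and 5.6 at 6 h (-1.30 ± 0.38, adjusted p = 0.0707 in that fit). Ccn2, a secreted matricellular protein, had the largest gap between duplicates: 9.3 and 12.7 at 2 h against 8.3 and 9.5 at 6 h, so the groups overlapped. Its second difference was -3.2 with TCDD and -2.5 in solvent, while its first was -1.0 with TCDD and 0 in solvent. Smim3, a small membrane protein, was tight in both groups, at 8.5 and 8.7 and then 7.3 and 7.5 (-1.20 ± 0.27, 0.0363). Slc20a1, a sodium-phosphate transporter, was at 8.1 and 8.6 and then at 6.9 and 7.5 (-1.15 ± 0.37, 0.0505).

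Of the remaining lower genes, Ndrg1, a gene induced by hypoxia and other stress, was at 9.1 and 10.2 and then at 8.1 and 9.0 (-1.10 ± 0.48, 0.0357), and its other 4 probe sets were lower in both pairs too. Ak4, a mitochondrial adenylate kinase, was at 6.5 and 7.3 and then at 5.5 and 6.2 (-1.05 ± 0.38, 0.0272). The other Ak4 probe sets changed less: -0.6 in both pairs on the brightest, -0.3 in both on another, and -0.1 and -0.2. Lpin1, a phosphatidate phosphatase, was at 5.8 and 4.5 and then at 4.2 and 3.7 (-1.20 ± 0.43, 0.0456). Fam117a was at 8.1 and 7.8 and then at 7.2 and 6.7 (-1.0 ± 0.29, 0.0531). In all 4 the highest 6 h level was below the lowest 2 h level. Genes outside the naming rule that also passed that fit as lower, chosen after their values were seen, were, with the standard errors of that fit, Gadd45b (-1.0 ± 0.17), Egln3 (-0.85 ± 0.15), Unc5b (-0.75 ± 0.12) and Ptpn1 (-0.70 ± 0.12), a stress gene, a prolyl hydroxylase of HIF, a netrin receptor and a tyrosine phosphatase.

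**Figure D3:**
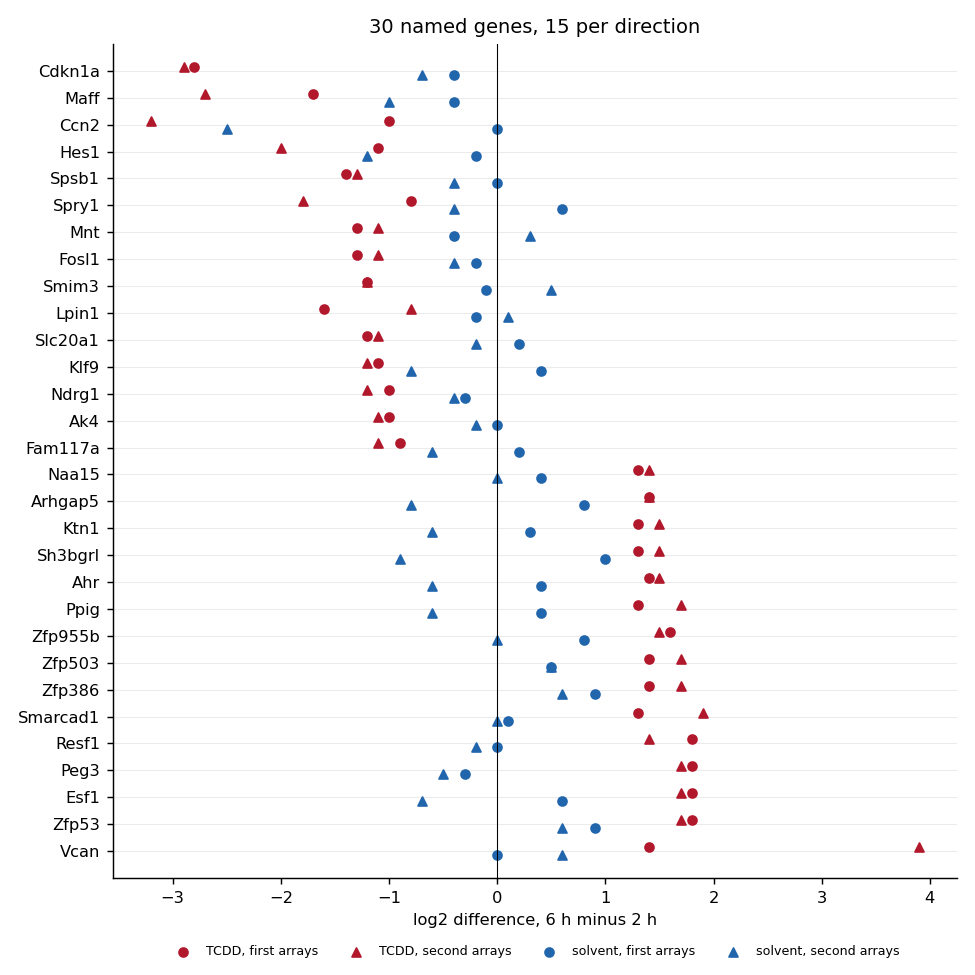
Log2 difference between 6 h and 2 h (horizontal axis) of the 30 named genes (vertical axis, ordered by their mean TCDD difference), with TCDD in red and solvent in blue, circles for first and triangles for second arrays. Both TCDD differences of a gene share a sign because the naming rule asks for it, from -3.2 for the second arrays of Ccn2 to 3.9 for those of Vcan; the solvent differences, which the rule did not use, lie on both sides of 0.

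The 96 probe sets that passed the set block without a 4 h TCDD array as higher at 6 h had a median 2 h level of 5.12, against 8.60 for the 17 lower ones. For the 469 genes at least 0.5 higher in both pairs, the median level over the 12 arrays was 6.20, against 6.27 for the 126 lower genes and 6.41 for all. RMA compresses differences near background, so the size of changes from low levels is uncertain. Some of the 96 began higher, Jak1 at a mean of 9.0 and Nqo1 at 8.40 among them. Zfp503, a zinc finger repressor, was at 7.7 and 6.9 at 2 h and 9.1 and 8.6 at 6 h (1.55 ± 0.41 without a block, adjusted p = 0.0144 in the set block without a 4 h TCDD array). Zfp503 in solvent lay between 8.3 and 9.3 at these times, so the treated cells were below solvent at 2 h and near it at 6 h.

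Ahr, the receptor of TCDD itself, was at 6.4 and 5.1 at 2 h (5.75 ± 0.92) and at 7.8 and 6.6 at 6 h (7.20 ± 0.85). The duplicates differed by more than 1 log2 unit at each time, but both differences were positive and nearly the same, 1.4 and 1.5. The change of 1.45, a 2.73-fold higher level at 6 h, had a standard error of 0.83 without a block (adjusted p = 0.636) and 0.22 in the set block without a 4 h TCDD array (0.0431). On solvent arrays Ahr was at 7.6 and 7.2 at 2 h and at 8.0 and 6.6 at 6 h. Treated cells were thus below both solvent arrays at 2 h and at their level at 6 h. At 4 h the treated arrays were far apart, at 4.8 and 7.6. A second probe set of Ahr, near the filter value, gave 0 in both pairs.

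Vcan, the matrix proteoglycan versican, was at 5.3 and 4.2 at 2 h (4.75 ± 0.78) and at 6.7 and 8.1 at 6 h (7.40 ± 0.99). Its mean change of 2.65 ± 0.56 was the largest of the higher genes named, 6.28-fold, but the pairs differed: 1.4 in the first and 3.9 in the second. It did not pass (adjusted p = 0.597 without a block, 0.0531 in the set block without a 4 h TCDD array). The other 2 Vcan probe sets were higher in both pairs as well. On solvent arrays it stayed between 4.7 and 5.6 at 2 and 6 h.

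Peg3, an imprinted zinc finger gene, was at 3.9 and 3.6 at 2 h (3.75 ± 0.21) and at 5.7 and 5.3 at 6 h (5.50 ± 0.28), a change of 1.75 ± 0.32 that passed the set block without a 4 h TCDD array (0.0215). Its second probe set gave 1.1 and 1.2. Peg3 in solvent was slightly lower at 6 h, at 3.5 on both arrays against 3.8 and 4.0. Several other zinc finger genes were among the 15. Zfp53 was at 4.0 and 3.1 and then at 5.8 and 4.8 (1.75 ± 0.60, 0.0066), Zfp955b at 4.4 and 4.0 and then at 6.0 and 5.5 (1.55 ± 0.50, 0.0363), and Zfp386 at 4.6 and 3.9 and then at 6.0 and 5.6 (1.55 ± 0.49, 0.0229). Both solvent differences of Zfp53 and Zfp386 were positive too, between 0.6 and 0.9.

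Chromatin and nucleolar genes were also named. Smarcad1, a chromatin remodeller, was at 4.9 and 4.5 and then at 6.2 and 6.4 (1.60 ± 0.31, 0.0302), but its brighter probe set gave 0.2 and 0.6. Resf1, a factor in the silencing of retroelements, was at 4.6 and 3.5 and then at 6.4 and 4.9 (1.60 ± 0.68, 0.0363). Esf1, a nucleolar protein of ribosomal RNA processing, was at 4.9 and 5.3 and then at 6.7 and 7.0 (1.75 ± 0.41, 0.0442). Ppig, a nuclear cyclophilin, was at 5.3 and 5.6 and then at 6.6 and 7.3 (1.5 ± 0.40, 0.0448), but its other probe set gave 0.2 and 0.5. The solvent differences of these 4 genes lay between -0.7 and 0.6. Naa15, the ribosome-anchoring subunit of an N-terminal acetyltransferase, was tight, at 4.8 and 4.7 and then 6.1 on both arrays (1.35 ± 0.32, 0.0215), and its 3 other probe sets were higher in both pairs.

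The last named genes are Arhgap5 at 4.6 and 4.5 and then 6.0 and 5.9, Ktn1, the kinesin anchor kinectin, at 6.4 and 5.8 and then 7.7 and 7.3, and Sh3bgrl at 6.3 and 5.5 and then 7.6 and 7.0. Each had a change of 1.40 and did not pass the set block without a 4 h TCDD array, at adjusted p-values of 0.0728, 0.0589 and 0.0949. Their solvent differences had opposite signs in the 2 pairs. Genes that passed that fit and lie outside the naming rule, picked here after their values were seen and given with the standard errors of that fit, include the remodeller Smarca5 (1.55 ± 0.25), the histone methyltransferase Kmt2a (1.5 ± 0.26), the kinase Rock1 (1.35 ± 0.20) and the kinase Jak1 (1.05 ± 0.17).

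AhR targets differed in both directions. Of 13 known targets tested, 6 were above 0 in both pairs and 5 below (background 23.3% and 29.8% of genes), with a median log2 change of 0.20 against -0.05 over all genes; 2 were at least 0.5 higher in both pairs (4.99% of all genes) and 2 at least 0.5 lower (1.34%). Nqo1, a quinone reductase, was at 8.3 and 8.5 at 2 h and at 9.6 and 9.4 at 6 h. Its change of 1.10 passed the set block without a 4 h TCDD array (standard error 0.15 and adjusted p = 0.0363 in that fit; adjusted p = 0.597 without a block), and the 4 h levels of 8.8 and 9.2 lay in between. Aldh3a1, an aldehyde dehydrogenase, was at 9.9 and 9.2 and then at 10.6 and 9.9, with 0.7 in both pairs (adjusted p = 0.609).

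The Cyp1 genes were already high at 2 h. Cyp1a1, the monooxygenase most used as a readout of AhR, was at 9.3 and 10.2 at 2 h, 11.1 and 10.2 at 4 h, and 10.1 and 10.4 at 6 h, so the 2 h and 6 h groups overlapped (adjusted p = 0.736). Cyp1b1 was at 11.7 and 11 and then at 11.9 on both arrays (adjusted p = 0.686). Its difference was 0.8 and 0.7 in solvent cells.

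The feedback gene Tiparp, a mono-ADP-ribosyltransferase that restrains AhR, was lower, at 8.9 and 9.2 and then at 8.4 and 8.5. Nfe2l2, the antioxidant regulator NRF2, was at 8.6 and 8.7 and then at 8.1 on both arrays. Neither passed (adjusted p = 0.749 and 0.658). In solvent the first pair of both genes was higher at 6 h by 0.5, but the second difference of Nfe2l2 was -0.5, near its TCDD values. Of AhR's partners and coregulators, 3 of 9 were at least 0.5 higher in both pairs and 0 at least 0.5 lower (4.99% and 1.34% of all genes): Ahr, the coregulator Nrip1 (0.7 and 2.2) and the chaperone Hsp90aa1 (0.5 and 1.1). The partner Arnt was at 4.8 and 4.6 and then at 4.4 and 4.5.

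A list of 11 genes that TCDD altered on average over the times of this series, a list chosen on these samples and so no independent evidence, had a median change of 0.50. Within it, Creb3l1, a membrane-bound transcription factor, was at 8.7 and 8.2 and then at 9.1 and 8.9, and Gpc1, a glypican, at 7.5 and 7.9 and then at 8.1 and 8.3. Cpox, an enzyme of haem synthesis, was at 9.0 and 8.8 and then at 8.8 and 8.2. Rgs4, a regulator of G protein signalling, depended on the probe set: the brighter one gave -0.1 and 0.4, while another, from a mean of 3.70 at 2 h, gave 0.8 and 1.2 and passed the set block without a 4 h TCDD array (mean 1.0, adjusted p = 0.0448).

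**Figure D4:**
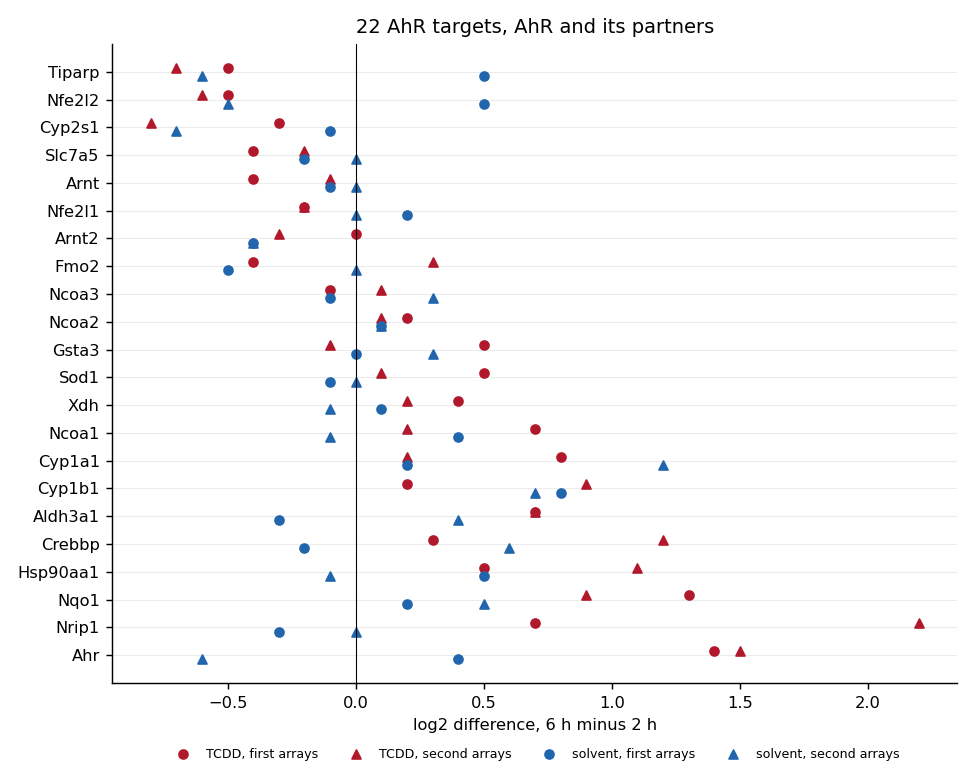
Log2 difference between 6 h and 2 h (horizontal axis) of 22 tested AhR targets, AhR and its partners (vertical axis, ordered by mean TCDD difference), with TCDD in red and solvent in blue, circles for first and triangles for second arrays. Ahr (1.4 and 1.5) and Nqo1 (1.3 and 0.9) stand to the right of their solvent values, while the TCDD and solvent values of Cyp1a1 and Cyp1b1 intermingle.

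Immediate early genes separated the 2 pairs of arrays. Of 30 tested, 20 were lower at 6 h by at least 1 in the second pair, against 2.36% of all genes, but 3 in the first pair, against 0.16%. Their median difference was -1.20 in the second pair and -0.05 in the first. In solvent cells the medians were -0.85 and 0.10. The mean level of the list was 6.80 on the first and 8.16 on the second 2 h TCDD array and 6.74 and 6.82 at 6 h, so the second 2 h array stood apart, as it did in solvent (6.81 and 7.76 at 2 h, 6.83 and 6.92 at 6 h). Poly-A control RNAs, which are added to each sample before labelling, also differed within the second pair: their mean was 9.03 and 9.06 on the first arrays at 2 h and 6 h, and 8.78 and 7.07 on the second. In the solvent pairs the difference of these controls was -0.17 and 0.08. Their part in the result was not tested.

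Single members show the split. Junb, an AP-1 subunit, was at 8.0 and 10.7 at 2 h and at 7.8 and 7.7 at 6 h. Egr2, an early growth response factor, was at 3.8 and 6.9 and then at 3.7 and 3.8. Nr4a1, an orphan nuclear receptor, was at 6.5 and 8.9 and then at 6.2 and 6.3. In each, only the second 2 h array was high. Fos itself, at 4.1 and 6.3 and then 4.4 and 4.6, and Atf3, a stress-induced factor, at 4.4 and 7.0 and then 4.1 and 4.6, behaved alike. None of these 5 passed in any of the 3 fits described here; their adjusted p-values without a block ran from 0.611 for Junb to 0.748 for Fos. Both pairs were at least 0.5 lower in 4 of the 30 (Maff, Fosl1, Ccn2 and Gadd45b), against 1.34% of genes. Below 0 in both pairs were 14 of the 30, against 29.8% of genes, and 0 were above 0 in both, against 23.3%. Gadd45b was at 8.5 and 9.5 and then at 7.7 and 8.3, with a difference of 0 in both solvent pairs.

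Feedback regulators of ERK and ligands of the EGF receptor showed the same split: 9 of 15 were lower by at least 1 in the second pair and 0 in the first, against 2.36% and 0.16% of all genes. Their medians were -1.10 and 0 with TCDD and -1.0 and 0.20 in solvent. Dusp6, a phosphatase of ERK, had differences of 0.3 and -2.0 with TCDD and 0.3 and -1.4 in solvent. Errfi1, an inhibitor of the EGF receptor, had 0.8 and -1.8 with TCDD and 0.5 and -2.1 in solvent. Spry1 alone of the 15 was at least 0.5 lower in both pairs, against 1.34% of all genes. Of 20 targets of SRF and YAP, by the same measure, 5 were lower by at least 1 in the second pair and 1, Ccn2, in the first; their median change was -0.18.

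**Figure D5:**
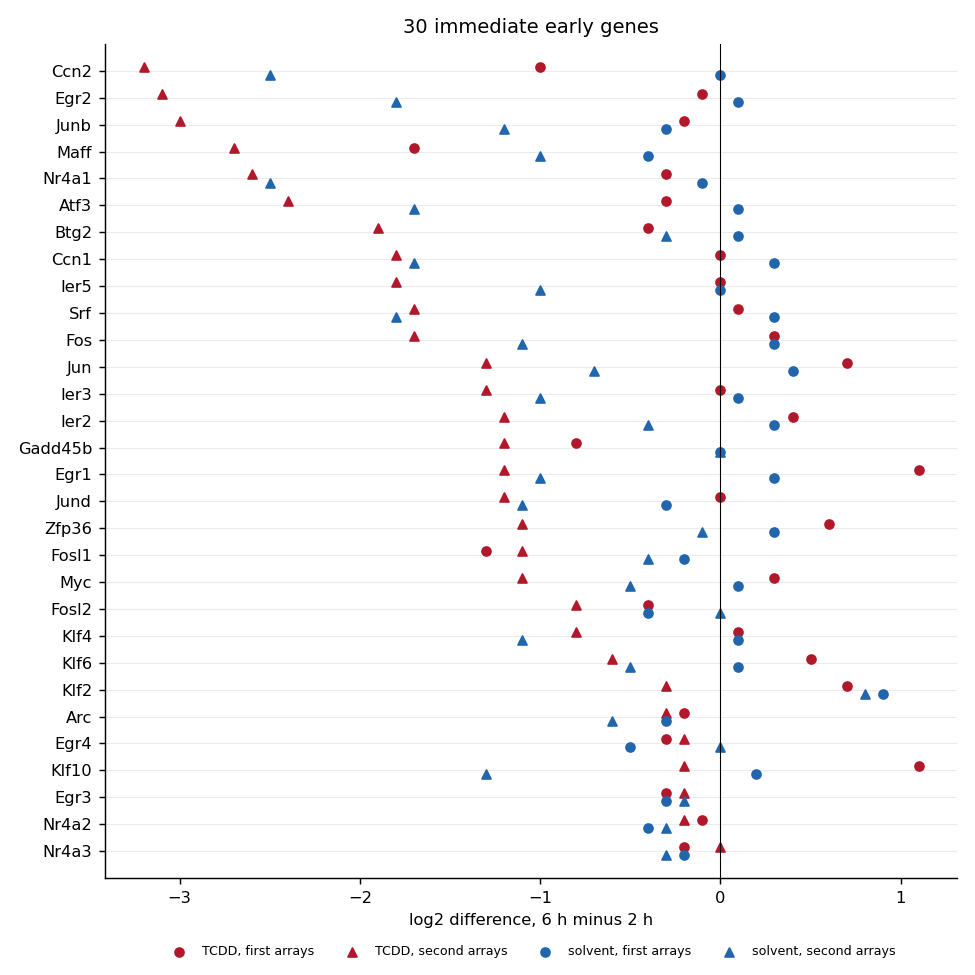
Log2 difference between 6 h and 2 h (horizontal axis) of 30 immediate early genes (vertical axis, ordered by the second TCDD difference), with TCDD in red and solvent in blue, circles for first and triangles for second arrays. Triangles of both colours lie mainly to the left of 0, to -3.2 for Ccn2, while most circles lie near 0; Maff and Fosl1 have both red symbols at or left of -1.1.

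Beyond Cdkn1a, the joint list of p53 targets and cyclin-dependent kinase inhibitors was mixed. Cdkn1b, the p27 inhibitor, was at 9.7 and 9.0 at 2 h and 8.7 and 8.4 at 6 h (adjusted p = 0.604 without a block, 0.0552 in the set block without a 4 h TCDD array), while the p53 targets Ccng1 (0.7 and 1.0) and Trp53inp1 (0.8 and 0.7) were higher. The p53 target and inhibitor list had 4 of 17 genes at least 0.5 lower in both pairs and 2 at least 0.5 higher (1.34% and 4.99% of all genes), with a median of 0. Mdm2, another p53 target, differed by 0 and 0.1. The genes of DNA replication and of mitosis had median changes of 0.03 in both lists. Of 40 tested, only Mki67, a proliferation marker, was at least 0.5 away from 0 in both pairs. By that step 4.99% of all genes were higher and 1.34% lower. Mki67 was at 6.5 and 5.9 and then at 7.0 and 6.9.

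Within the IL-6 family and its JAK-STAT pathway, several receptors and kinases were higher, and a ligand and an inhibitor were lower. The receptors Osmr (0.9 and 2.1) and Lifr (0.5 and 1.4), the kinases Jak1 (0.7 and 1.4) and Jak2 (0.5 and 1.5), and Socs2 (0.8 and 0.8) made 5 of 19 genes at least 0.5 higher in both pairs, against 4.99% of all genes. Socs3, the feedback inhibitor of IL-6 signalling, was at 9.2 and 9.7 and then at 8.4 on both arrays, and the ligand Lif was at 5.5 and 7.7 and then at 4.9 and 5.4. Of these 7, Jak1 passed the set block without a 4 h TCDD array (0.0448); Socs3 had an adjusted p of 0.597 without a block and 0.0682 there. The median of the list was -0.05, that of all genes.

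Genes of the hypoxia response and glycolysis were lower as a list, with a median of -0.40. Of 20, 15 were below 0 in both pairs, against 29.8% of genes, and 0 were above 0 in both, against 23.3%. The solvent median was -0.15. Vegfa, the angiogenic growth factor, was at 7.2 and 8.3 and then at 6.7 and 7.1, and Pfkp, a phosphofructokinase, had differences of -0.3 and -1.3. Only Ndrg1 and Vegfa of the 20 were at least 0.5 lower in both pairs, against 1.34% of all genes. Ndrg1 passed the set block without a 4 h TCDD array. The brightest probe set of Egln3 gave -0.4 and -0.2, less than the one that passed.

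In the Notch pathway, Hes1 and the receptor Notch3 (6.1 on both arrays, then 5.6 and 5.0) were lower, and the receptor Notch2 (7.8 and 7.0, then 8.3 and 7.9) was higher. Among 15 clock genes, the output factor Dbp (5.5 and 6.3, then 5.0 and 4.1) and Bhlhe40 (5.6 and 7.2, then 5.0 and 5.9) were at least 0.5 lower in both pairs. Glucocorticoid-responsive genes had 3 of 15 at least 0.5 lower in both, namely Klf9, Sgk1 and Ddit4, and a median of -0.30. By the same step, at which 1.34% of all genes were lower, 1 gene was lower in each of 2 other lists: Tnfaip2 among 19 NF-kB genes (8.9 and 8.7, then 8.3 and 8.1) and Irf1 among 15 interferon and antigen presentation genes (8.5 and 8.0, then 7.7 and 7.3). Of these 10 genes, Hes1 passed the set block without a 4 h TCDD array, and the others did not pass in any of the 3 fits.

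Ribosome biogenesis genes had a median of 0.20, with 10 of 23 above 0 in both pairs (background 23.3%) and a solvent median of 0.30. Nucleophosmin, Npm1, was at 11.2 and 11 and then at 11.8 and 11.6. The lists of TGF-beta genes (-0.20), BMP and Id genes (-0.05), the unfolded protein response (-0.15), sterol and fatty acid synthesis (-0.10), NRF2 antioxidant genes (0.10), metallothioneins and zinc (0.15), heat shock (0), extracellular matrix (-0.10), thymic stromal chemokines and cytokines (0.08), prostaglandin synthesis (-0.15) and housekeeping references (0.20) had medians within 0.25 of that of all genes. In these, Pla2g4a, a phospholipase that releases arachidonic acid, was at 7.0 and 6.9 and then at 8.1 and 8.0 and passed the set block without a 4 h TCDD array (0.0486). Hmox1, haem oxygenase, was at 8.1 and 10.3 and then at 7.6 and 8.1, and Lox, the collagen cross-linking enzyme, at 10.7 and 9.7 and then at 11.2 and 11.3.

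Solvent cells at 6 h against 2 h, which share no array with the treated cells, are the nearest comparison. The first array minus the second correlated between solvent and TCDD over probe sets, at 0.706 at 6 h and 0.366 at 2 h. The solvent differences may therefore not be independent of the treated ones. limma passed 0 of 15762 probe sets there (0%), with 446 (2.83%) at an unadjusted p under 0.05. Both 6 h solvent arrays are given as 4 h in their descriptions and 6 h in their titles, and titles were followed. The 469 genes at least 0.5 higher in both TCDD pairs had a median solvent change of 0.25, and the 126 lower genes one of -0.20, against 0 for all genes. The difference between the time changes of treated and solvent cells was tested itself: 0 probe sets passed without a block (228, or 1.45%, unadjusted) and 0 with the set block (456, or 2.89%, unadjusted). Without a 4 h TCDD array, the set block passed 1 (0.00634%), Cdkn1a, whose time change was lower by 2.30 ± 0.21 in treated cells (adjusted p = 0.0476); with all arrays it was 0.412, and without a block 1. For the other 29 named genes the difference from solvent did not pass in these 3 fits.

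On the labelled cell type, 7 of 14 markers of cortical thymic epithelium on the array lay above the filter. These were Cxcl12 (12.31), Ctsl (11.36), Ccl25 (5.9), Krt8 (5.04), Pax9 (4.69), Dll4 (4.63) and Foxn1 (4.36). Below it lay Prss16, Krt18, Pax1, Epcam, Ly75, Cd83 and Cdh1. Of 16 markers of fibroblasts and mesenchyme, 15 lay above the filter, at a median level of 10.98 against 4.17 for the cortical list. The summed level of the mesenchymal list was 147.7 to 153.2 at 2 h and 151.2 to 156.3 at 6 h. The medullary epithelial list had 5 of 10 above the filter, at a median of 4.16. Markers of thymocytes, macrophages and endothelium had medians of 4.06, 3.78 and 3.51, with 6 of 12, 5 of 12 and 3 of 9 above the filter. Among those above it were Thy1 (7.48, also on the mesenchymal list), Cd3e (5.56), Cd14 (7.02) and Cldn5 (5.25). Ptprc, the pan-leukocyte marker, and Pecam1 were below the filter. All arrays had the same median of 5.1. The 3′ to 5′ differences of the actin and Gapdh control probe sets were 0.5 to 0.8 and 0.0 to 0.2.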

How the data were processed

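Expression was measured on 12 Affymetrix mouse arrays, 2 for each of 6 groups of treatment and time, taken from titles. The values the authors deposited are log2 levels of probe sets from RMA, as the submitters' processing notes say; RMA corrects for background, makes the arrays' distributions equal and combines the probes of a set, so a global shift in RNA would be lost. Version, software and annotation build are not given in the sources used here. The deposited log2 values ran from 2.2 to 14.1 with 1 decimal; 0 columns were left out. The 4 arrays compared have no contradiction in their labels; 1 of the 4 h TCDD arrays carries the solvent in its treatment field.

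The table has 22690 probe sets, including 64 controls that were left out. The platform annotation named 1 gene for 20380, several for 691 and none for 1555; 20351 matched a RefSeq table (GRCm38.p6), which altered 0 symbols. The filter kept probe sets with a mean of at least 4. The 471 just inside it (4.0 to 4.092) had changes of -0.70 to 1.75, the 469 just outside (3.9 to 3.992) of -0.75 to 1.25.

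limma 3.58.1 (R 4.3.3) was used to fit group means over all 12 arrays (lmFit, eBayes, two-sided, Benjamini-Hochberg over 15762 probe sets, threshold 0.05), checked on simulated data. Errors of changes are standard errors without a block unless a block is named; a list value uses the gene's probe set of highest mean. The array number limits the precision. Named genes were the 15 per direction with the largest smaller difference among those with 2 differences of 1 sign. Alternatives were blocks, filters, normalization, variance models, and arrays left out. The genes, lists and tests were chosen with earlier results of these data known. Array sets came from complete linkage clustering into 4 clusters. With 2 replicate numbers, pairing was not established. Promoters came from RefSeq tables, which listed 24 of the 30 named genes.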

Additional observations from a re-analysis of the deposited data

Results flagged for a closer look

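In these genes, both treated pairs moved one way between 2 h and 6 h and both solvent pairs the opposite way. They were found among 30 named genes, the list members at least 0.5 away from 0 in both treated pairs, and the genes past the set block without a 4 h TCDD array, so they were picked from many. The difference between the treatments was tested in the same limma fit and did not pass for any of them (adjusted p = 1 without a block).

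Peg3, the imprinted zinc finger gene, had differences of 1.8 and 1.7 with TCDD and -0.3 and -0.5 in solvent, so its time changes differed by 2.15 (adjusted p = 0.135 in the set block without a 4 h TCDD array). Its second probe set had a difference of 1.45 (also 0.135). Rock1, a kinase that acts on actomyosin, differed by 2.00 on 1 probe set (1.0 and 1.4 with TCDD, -0.6 and -1.0 in solvent; 0.135) and by 1.85 on the other (0.389). Kmt2a, a histone methyltransferase, differed by 1.75 (0.531), and Rasal2, a Ras GTPase-activating protein, by 1.10 (0.435). Socs3 differed by -1.70, from -0.8 and -1.3 with TCDD and 0.2 and 1.1 in solvent (0.502). Irf1, an interferon-regulated transcription factor, differed by -1.0 (0.502). Mki67 differed by 1.55, with -0.5 and -1.1 in solvent (0.622), and Notch2 by 0.80 (0.622).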

How the results depend on the processing

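The count of 0 for TCDD 6 h against 2 h also came from both filters at a percentile (30th and 50th), no filter, median centring, quantile normalization again, robust variances with a trend, dropping the 4 h arrays, fits on the 6 TCDD arrays or the 4 compared, and each of 12 arrays left out (0 to 0, with 390 to 2355 at an unadjusted p under 0.05). Without variance moderation 1 probe set passed for TCDD, 1 for solvent and 2 for the difference of the time changes; these have a standard error of 0 because values carry 1 decimal. With the array set as a block, 3 passed for TCDD, and with each array also left out 0 to 113 for TCDD, 0 for solvent and 0 to 1 for the difference.

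With replicate number as a block over all arrays, 0 passed for TCDD (1372 unadjusted), 0 for solvent (486) and 0 for the difference (249); within each treatment 0 passed in all 3 (1021, 322 and 174). On only the 4 arrays with that block, 0 passed (1549). Without the 4 h arrays and with the replicate block, 1 passed for TCDD, Cdkn1a (adjusted p = 0.0113). The deviations of same-numbered TCDD arrays at 2 h and 6 h correlated at 0.258, and those of solvent arrays at 0.243. Those of solvent with TCDD arrays correlated at 0.706 at 6 h and 0.366 at 2 h. By contrast, TCDD 2 h with 4 h gave -0.553, TCDD 4 h with 6 h -0.303 and solvent 6 h with TCDD 4 h -0.529.

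Named genes were chosen for 2 differences of 1 sign, so that they kept it is no sign of stability. Sizes moved by over 1.5 times when 1 of the 4 arrays compared was left out: Ahr 0.80 to 2.10, Resf1 0.85 to 2.35, Ccn2 -3.80 to -0.40, Fosl1 -1.80 to -0.60, Ndrg1 -1.65 to -0.55, Lpin1 -1.85 to -0.55, Spry1 -1.90 to -0.70 and Ak4 -1.45 to -0.65. The list medians of 5 of 28 lists had opposite signs in the 2 pairs. With 4 h and 6 h solvent arrays as 1 group, 0 passed for solvent.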

Other observations

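Zinc finger gene symbols were counted as Zfp, Zscan, Zkscan or Zbtb followed by a number. Among the 469 genes at least 0.5 higher in both treated pairs, 23 (4.9%) have such a symbol, against 2 of the 126 lower genes (1.59%) and 149 of all 9391 (1.59%). This class was looked at after the values were seen. The mean of the 4 h TCDD arrays lay between the 2 h and 6 h means for 203 of the 469 higher genes, 100 of the 126 lower genes and 2675 of all 9391. Genes picked for a gap of at least 0.5 leave more room between the means, so the share over all genes is not a like background. The 4 h TCDD arrays were also the least alike of any group (SD 0.66). The metallothioneins Mt1 and Mt2, zinc-binding proteins induced by metals, differed by -0.2 and 0.2 in the first TCDD pair and by 1.0 and 1.6 in the second.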
